A study of Rattus norvegicus with 164 samples.

Results

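The 10 genes described here mark neurons of the deepest cortical layers. Tle4, Foxp2 and Syt6 mark layer 6 corticothalamic cells, Ccn2, Nxph4 and Cplx3 mark layer 6b, and Rprm, Sulf1, Crym and Thsd7b have been used as further deep-layer or subplate genes, mostly from work in mouse. They were chosen by symbol, and all 10 were found among the 38354 genes of the table and among the 15150 genes with a mean level of at least 1. The tissue was prelimbic cortex, a medial prefrontal area, of outbred heterogeneous stock rats, with polyadenylated RNA sequenced in 130 libraries. The labels divide the libraries only by the animal's identifier: 68 have a decimal number, 11 have an E21DCD code that replaced an earlier label after a genotype mismatch (called reassigned here), and 51 have an E21DCD code without such a change. No treatment, sex or age is given in the labels, and the heterogeneous stock descends from several inbred strains, so every animal has its own genome. Library totals ran from 15.1 to 55.95 in units of 1000000 estimated counts, with a median of 25.8.

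Layer 6 neurons lie at the base of the cortical grey matter and send axons to the thalamus, and Foxp2, Tle4 and Syt6 are among the genes by which they are told from layer 5 output neurons. Layer 6b is a thin sheet between layer 6 and the white matter that holds what remains of the subplate, a population of early-born neurons that guides growing thalamic axons.

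Levels below are log2(CPM + 1), where CPM is the estimated count scaled to a library total of 1000000, and since counts were not divided by transcript length, they are compared between libraries and not between genes. The reads behind them were ample for most of the genes. Estimated counts had medians of 7770 for Crym, 2100 for Tle4 and 1151 for Rprm, and the lowest medians were 296.5 for Thsd7b and 102.5 for Nxph4, which ran from 9 to 1557 counts per library.

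In 11 libraries, all with decimal identifiers, the striatal receptor gene Drd2 stood above 6 and the libraries resembled striatum, and they are called striatal-like. The other 119 are called cortical. All 11 tested striatal genes were higher in every striatal-like library than in every cortical library, and summed over the list they reached 5641 to 8143 CPM in the striatal-like libraries, against 237 to 959 in the cortical libraries. No gene of the list was at 0 in either class. The separation of Drd2 itself follows from the rule that set the classes. Of striatal genes outside that rule, Adora2a ran from 7.99 to 8.74 in the striatal-like and 1.85 to 5.12 in the cortical libraries. Ppp1r1b ran from 10.67 to 11.21 and from 6.06 to 8.11, in the same order. A further 7 cortical libraries, 1 decimal (replicate 15) and 6 E21DCD, had low levels of the GABA enzyme gene Gad2, 2.37 to 4.27, against 5.14 to 6.52 in the other 112. Both classes were set from the values, so levels in them are described with no test, and results are also given without the 7.

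The layer 6 genes were higher in the striatal-like libraries than in the cortex. Foxp2, a forkhead transcription factor also made by striatal projection neurons, had a lowest, median and highest level of 6.00, 6.26 and 6.44 in the striatal-like libraries, against 2.97, 4.11 and 4.85 in the cortical libraries. Syt6, a synaptotagmin of the vesicle fusion machinery, had 6.27, 6.73 and 6.94 in the striatal-like libraries, against 3.67, 4.75 and 5.56 in the cortical libraries. Tle4, a Groucho-family corepressor, had 6.87, 7.16 and 7.33 in the striatal-like libraries, against 4.77, 6.33 and 6.83 in the cortical libraries. For all 3 genes every striatal-like library lay above every cortical library. Of 18 further genes of layer 6 or 6b, 3 were separated in this way and 2 in the opposite direction. The share of all genes separated between the classes is not given, here or for the genes below. Separation is therefore not read as particular to the members.

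The layer 6b genes did not move as a block between the classes. Nxph4, a neurexophilin and so a secreted ligand of neurexins, had a lowest, median and highest level of 4.76, 5.12 and 5.69 in the striatal-like libraries, against 0.49, 2.15 and 4.84 in the cortical libraries, and 10 of the 11 lay above every cortical library. Cplx3, a complexin that regulates vesicle fusion, had 0.97, 2.66 and 4.698 in the striatal-like libraries, against 2.54, 3.95 and 5.31 in the cortical libraries, and 5 of the 11 lay below every cortical library. Ccn2, a secreted matricellular protein also known as connective tissue growth factor, had 2.41, 4.19 and 5.14 in the striatal-like libraries, against 3.13, 4.48 and 5.63 in the cortical libraries. The classes overlapped widely for Ccn2, with 1 striatal-like library below all cortical ones.

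Rprm, which encodes the cell-cycle inhibitor reprimo, stood lower in the striatal-like libraries. Its lowest, median and highest levels were 1.45, 2.58 and 4.47 in the striatal-like libraries, against 4.25, 5.53 and 6.50 in the cortical libraries, with 10 of 11 below every cortical library. Sulf1, an extracellular sulfatase that trims heparan sulfate, had 4.87, 5.34 and 5.77 in the striatal-like libraries, against 3.14, 4.95 and 5.59 in the cortical libraries. Crym, a thyroid-hormone-binding crystallin, overlapped almost fully, at 7.41, 8.10 and 8.41 in the striatal-like libraries, against 7.06, 8.22 and 8.80 in the cortical libraries. Thsd7b, a thrombospondin-domain protein, had 2.62, 3.10 and 3.42 in the striatal-like libraries, against 1.61, 3.66 and 4.35 in the cortical libraries. In bulk tissue, fewer cells of a type and less RNA per cell cannot be told apart.

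**Figure D1:**
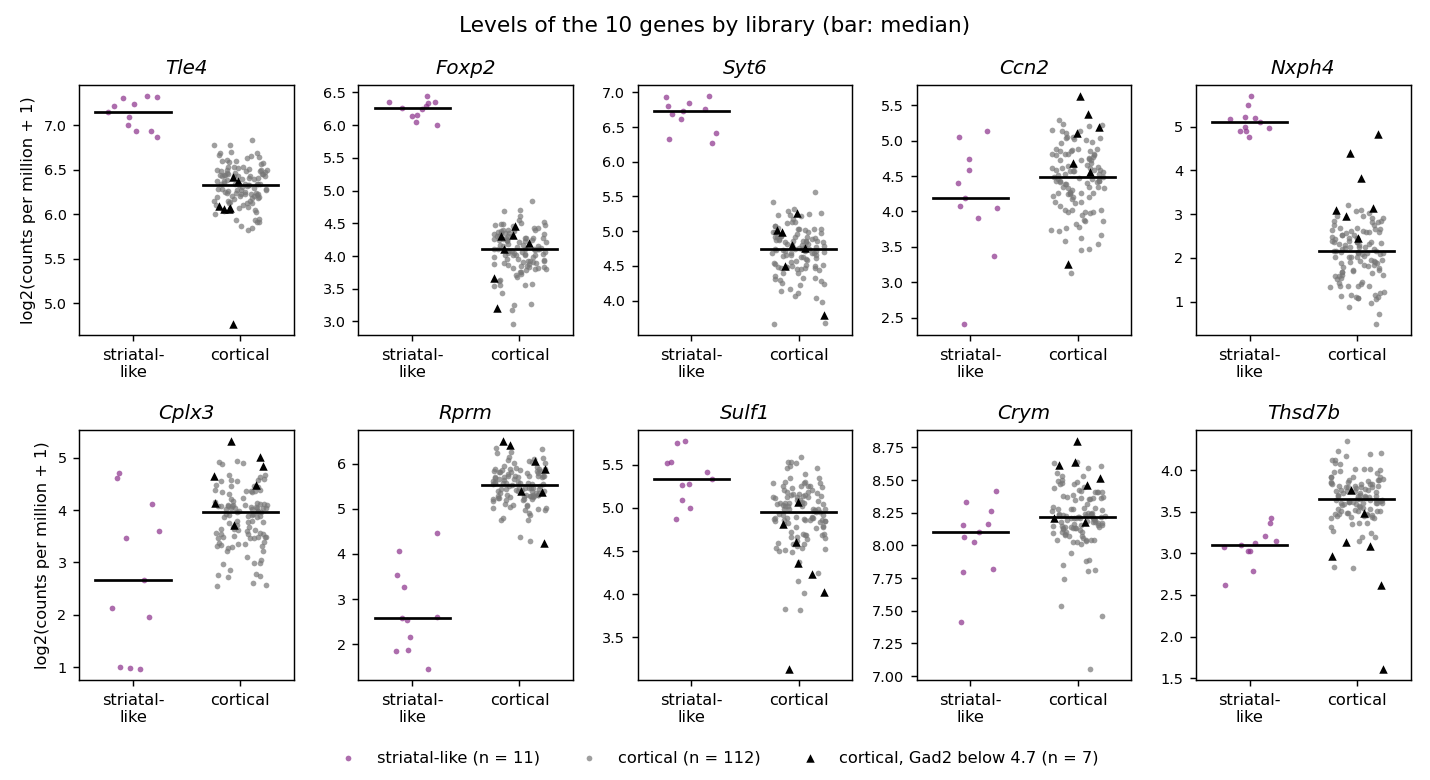
Each panel plots 1 gene, with log2(CPM + 1) on the y axis and a point per library, for 11 striatal-like and 119 cortical libraries (triangles mark the 7 cortical libraries with Gad2 below 4.7, bars the medians). Tle4, Foxp2 and Syt6 do not overlap between the classes, Rprm and Nxph4 differ in opposite directions, and Crym overlaps almost fully.

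Among the 11 striatal-like libraries, Cplx3, Rprm and Ccn2 followed the cortical glutamate transporter gene Slc17a7, whose level ran from 2.75 to 8.83. Cplx3 had r = 0.97 and rho = 0.98 with Slc17a7 (n = 11, permutation p = 1e-05 for each, the smallest that 100000 permutations can give). Its slope was 1.40 ± 0.09 log2 units per SD (SE, limma adjusted p = 1.56e-06), and r was 0.97 without the 2 libraries farthest from the median of Slc17a7. Rprm had r = 0.94 and rho = 0.94 (permutation p = 5e-05 and 9e-05), a slope of 0.90 ± 0.10 (adjusted p = 0.000101) and r = 0.94 without the 2 farthest. Ccn2 had r = 0.76 and rho = 0.76 (permutation p = 0.0042 and 0.00886), a slope of 0.59 ± 0.14 (adjusted p = 0.0254) and r = 0.66 without the 2 farthest. These 3 of 10 members passed the test, where 4.68% of all genes did, and 10 relations were computed.

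The other members did not pass in these libraries. Thsd7b had r = 0.76 and rho = 0.79 (permutation p = 0.00461 and 0.00554) with an adjusted p of 0.0719, while Foxp2 had r = -0.22 (permutation p = 0.506) and Nxph4 r = -0.24 (permutation p = 0.484). Tle4 had r = -0.69 (permutation p = 0.0257) and Crym r = -0.68 (permutation p = 0.0192), with adjusted p of 0.0918 and 0.0784. Syt6 had r = -0.57 (permutation p = 0.0687) and Sulf1 r = -0.52 (permutation p = 0.104), with adjusted p of 0.17 and 0.226. Nxph4, grouped with Cplx3 and Ccn2 as a layer 6b gene, thus gave no such relation, and its level stayed between 4.76 and 5.69 in these libraries while Cplx3 ran from 0.97 to 4.698. Tbr1 and Neurod6, cortical glutamatergic genes, spanned 1.40 to 5.48 and 0.40 to 4.25 over the same 11 libraries. All 11 have decimal identifiers, so the relation has no value within another kind of identifier.

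**Figure D2:**
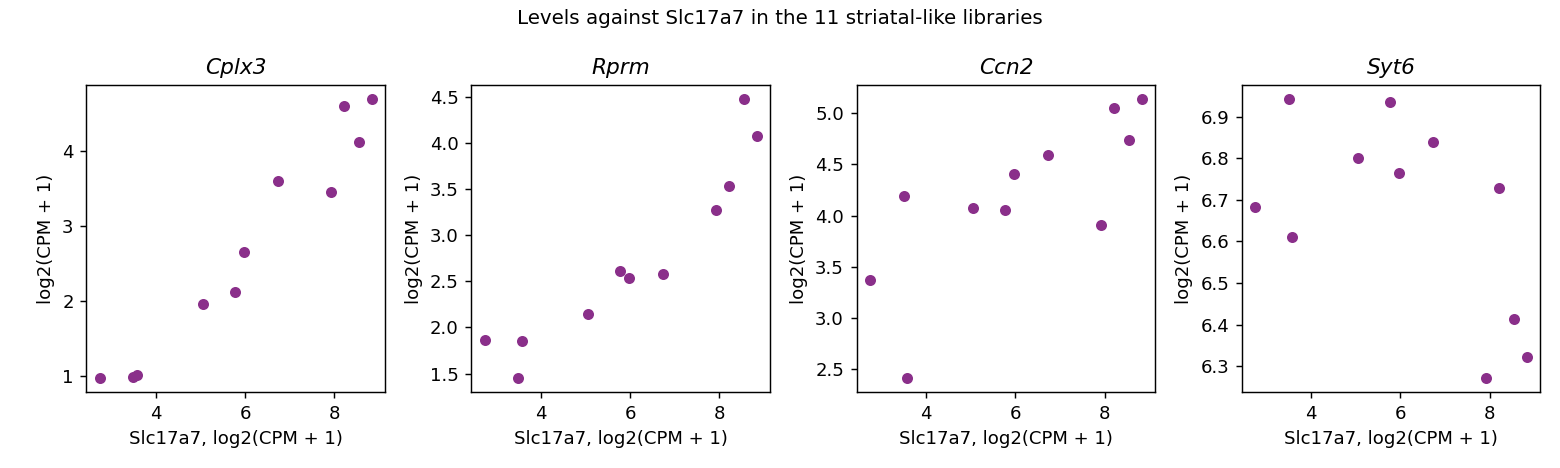
Levels of Cplx3, Rprm, Ccn2 and Syt6 on the y axes against that of Slc17a7 on the x axes, all as log2(CPM + 1), with a point for each of the 11 striatal-like libraries. Cplx3, Rprm and Ccn2 are higher where Slc17a7 is higher (r = 0.97, 0.94 and 0.76), and Syt6 lies between 6.27 and 6.94 with r = -0.57.

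Over the 119 cortical libraries the layer 6b genes varied more than most genes of like level. The SD of Nxph4 was 0.70, or 2.47 times the trend of SD on mean level, and 97.7% of tested genes had a lower ratio. Cplx3 had an SD of 0.58 and a ratio of 2.39, and Ccn2 an SD of 0.48 and a ratio of 2.09. Rprm followed at a ratio of 1.88 and Sulf1 at 1.70. Tle4 and Crym were close to the trend, at 1.16 and 1.07, with 67.7% and 59.3% of genes below them, but without the 7 libraries of low Gad2 86.5% and 89.3% of genes were.

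The layer 6 and layer 6b members rose and fell together over these libraries. Of the 45 pairs of members, 37 passed the test with the gene named before the other as the covariate (limma, adjusted p under 0.05). Of all genes, 59.3% passed with Tle4 as covariate, 6.94% with Foxp2, 9.57% with Syt6, 21.6% with Ccn2, 59.8% with Nxph4, 50% with Cplx3, 25% with Rprm, 60.1% with Sulf1 and 49% with Crym. A pass alone therefore says little for several members, and the size of r is given beside it. Leaving out Crym, 35 of 36 pairs passed, with r between 0.15 and 0.84. The pair that did not pass was Nxph4 and Thsd7b, at r = 0.15 (rho = 0.41, permutation p = 0.103, adjusted p = 0.142). It had r = 0.55 and passed without the 7 libraries of low Gad2 (adjusted p = 1.72e-08), and the lowest r among these 36 pairs was then 0.41.

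Within layer 6b, Nxph4 and Cplx3 were each other's closest gene among 15149, the one of highest r, at r = 0.84 (rho = 0.84, permutation p = 1e-05, adjusted p = 4.66e-29). Their r was 0.83 without the 2 libraries farthest from the median of Nxph4, 0.85 without the 7 libraries of low Gad2, 0.78 within the decimal, 0.79 within the reassigned and 0.88 within the E21DCD libraries. Ccn2 and Cplx3 had r = 0.76 (rho = 0.75, permutation p = 1e-05, adjusted p = 4.43e-20), and Cplx3 was the closest gene to Ccn2 with Nxph4 next. Ccn2 and Nxph4 had r = 0.70 (rho = 0.73, permutation p = 1e-05, adjusted p = 9.68e-16). The 3 pairs had a mean r of 0.77.

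Within layer 6 the mean r of the 3 pairs was 0.72. Tle4 and Syt6 had r = 0.80 (rho = 0.79, permutation p = 1e-05, adjusted p = 7.42e-25) and 0.86 without the 7 libraries of low Gad2, where each was the other's closest gene. Foxp2 and Syt6 had r = 0.73 (rho = 0.72, permutation p = 1e-05, adjusted p = 1.34e-17), and no gene was closer to Foxp2 than Syt6. Tle4 and Foxp2 had r = 0.63 (rho = 0.73, permutation p = 1e-05, adjusted p = 1.8e-12), which was 0.77 without the 2 libraries farthest from the median of Tle4. Decimal replicate 15, the library with the lowest Tle4 (4.77), Rprm (4.25), Sulf1 (3.14) and Thsd7b (1.61) of all cortical libraries, is among the 7 of low Gad2. The mean r within layer 6 was 0.82 without those 7, against 0.78 within layer 6b.

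Between the layers the 9 pairs had a mean r of 0.49 and all 9 passed, from 0.36 for Foxp2 and Cplx3 and for Tle4 and Nxph4 to 0.63 for Syt6 and Nxph4. Without the 7 libraries the mean was 0.59, with Syt6 and Nxph4 at 0.74 and Tle4 and Nxph4 at 0.71. Means within layer 6, within layer 6b and between them were 0.72, 0.68 and 0.49 in the decimal libraries, 0.64, 0.74 and 0.57 in the reassigned and 0.75, 0.84 and 0.52 in the E21DCD libraries. In the 11 striatal-like libraries they were 0.58, 0.23 and -0.06.

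Over the 119 cortical libraries, Rprm, Sulf1 and Thsd7b had higher r with the layer 6 genes than with the layer 6b genes. Rprm and Syt6 had r = 0.83 (rho = 0.81, permutation p = 1e-05, adjusted p = 2.28e-28), Tle4 and Thsd7b r = 0.82 (rho = 0.75, permutation p = 1e-05, adjusted p = 1.46e-26), and Tle4 and Sulf1 r = 0.81 (rho = 0.74, permutation p = 1e-05, adjusted p = 2.21e-25). With the mean z-score of Tle4, Foxp2 and Syt6, r was 0.81 for Rprm, 0.79 for Sulf1 and 0.74 for Thsd7b, and with that of Ccn2, Nxph4 and Cplx3 it was 0.67, 0.35 and 0.27. Without the 7 libraries of low Gad2 the values with the layer 6b score were 0.66, 0.52 and 0.53. For Rprm this differed by kind of identifier. With Tle4, Foxp2 and Syt6 its r was 0.82, 0.70 and 0.86 within the decimal libraries. With Ccn2, Nxph4 and Cplx3 it was 0.54, 0.49 and 0.42 there. Within the E21DCD libraries these r were 0.60, 0.57 and 0.81, against 0.74, 0.75 and 0.76. Within the reassigned libraries they were 0.75, 0.57 and 0.67, against 0.71, 0.86 and 0.74. Whether a gene's r with the layers differed was not tested.

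Crym stood apart from the rest in these unadjusted correlations. Its r with the other 9 members ran from -0.02 to 0.34 with a mean of 0.10, and 2 of 9 pairs passed, that with Rprm at 0.34 (rho = 0.37, permutation p = 0.00015, adjusted p = 0.0017) and that with Sulf1 at 0.21 (rho = 0.16, permutation p = 0.0212, adjusted p = 0.033). The r of Crym and Rprm was 0.17 within the decimal, 0.29 within the reassigned and 0.77 within the E21DCD libraries. The mean r of Crym with the other members was -0.02 within the decimal, 0.09 within the reassigned and 0.38 within the E21DCD libraries.

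**Figure D3:**
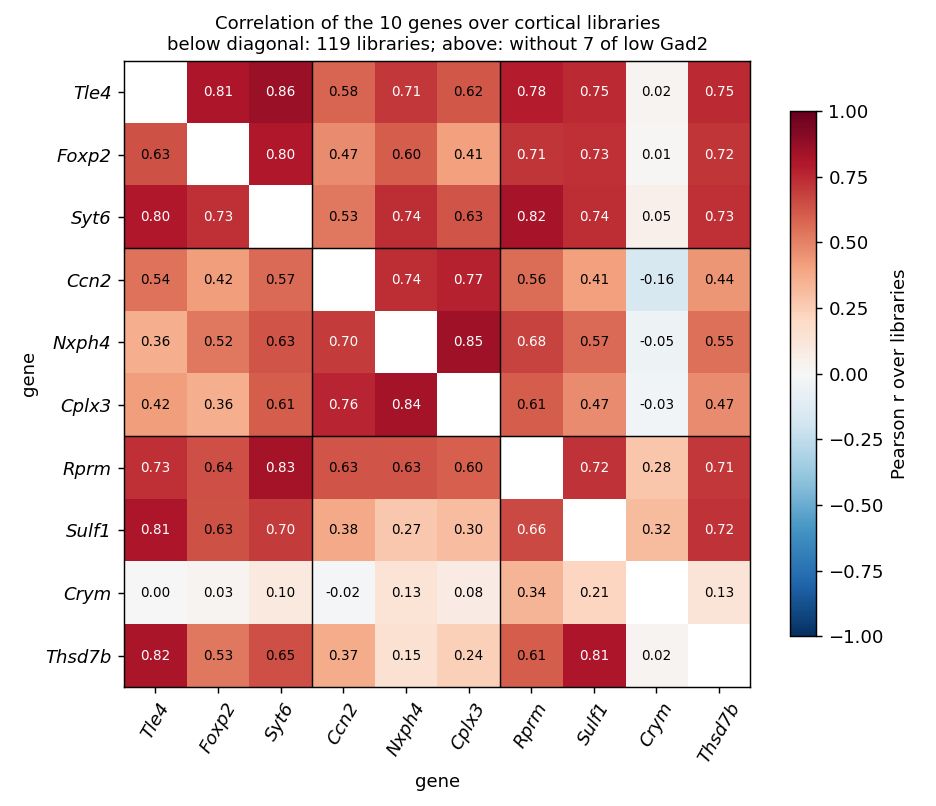
Pearson r for each pair of the 10 genes over cortical libraries, with genes on both axes, all 119 below the diagonal and the 112 without low Gad2 above it (red positive, blue negative). The blocks of layer 6 (top left, 0.63 to 0.80 below the diagonal) and layer 6b (0.70 to 0.84) are red, and the row of Crym is nearly white.

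The upstream sequences of 3 of these genes are given as examples: Ccn2 and Cplx3 of layer 6b, and Tle4 of layer 6. Over the cortical libraries r was 0.76 for Ccn2 and Cplx3, and 0.54 and 0.42 for Tle4 with these. They are not the closest pairs with sequences, since Rprm and Syt6 had r = 0.83. Of the 10 genes, 6 have an entry in the RefSeq promoter set of build GRCr8, and Foxp2, Nxph4, Sulf1 and Crym have none. Each line holds the 250 bases before the annotated start, 5′ to 3′ on the strand of the gene, which is the minus strand for all 3: chr1:22624615-22624864 for Ccn2, chr8:66906201-66906450 for Cplx3 and chr1:221222827-221223076 for Tle4. The genes span chr1:22621498-22624614, chr8:66899438-66906200 and chr1:221086250-221222826, and the other members lie on chromosomes 1 (Crym), 2 (Syt6), 3 (Rprm), 4 (Foxp2), 5 (Sulf1), 7 (Nxph4) and 13 (Thsd7b). Capitals mark matches on either strand to GGAATG (the core bound by TEAD factors), CACGTG (the palindromic E-box), TATAAA (the TATA box), CCAAT (the CCAAT box, ATTGG on the other strand) and CCGCCC (the GC box), a set chosen after the sequences had been seen.
Ccn2: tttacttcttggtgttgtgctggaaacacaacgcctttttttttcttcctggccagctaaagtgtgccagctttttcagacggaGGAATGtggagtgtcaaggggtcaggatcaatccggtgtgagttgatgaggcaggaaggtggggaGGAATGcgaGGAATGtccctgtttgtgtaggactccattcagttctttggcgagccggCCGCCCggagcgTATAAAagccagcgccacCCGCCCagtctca
Cplx3: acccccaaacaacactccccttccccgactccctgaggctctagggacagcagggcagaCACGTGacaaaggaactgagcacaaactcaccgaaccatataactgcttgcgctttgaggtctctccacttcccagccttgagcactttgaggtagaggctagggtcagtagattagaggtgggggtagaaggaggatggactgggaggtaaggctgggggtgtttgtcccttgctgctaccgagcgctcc
Tle4: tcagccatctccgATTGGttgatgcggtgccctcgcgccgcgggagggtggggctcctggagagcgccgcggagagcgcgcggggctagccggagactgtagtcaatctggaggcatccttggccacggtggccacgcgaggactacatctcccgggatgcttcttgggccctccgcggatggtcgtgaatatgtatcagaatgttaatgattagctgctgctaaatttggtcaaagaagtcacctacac
Ccn2 held 3 matches to GGAATG, beginning 166, 101 and 92 bases before the start, a TATAAA at 31 bases and 2 matches to CCGCCC, while Cplx3 held 1 CACGTG at 191 bases and Tle4 1 CCAAT at 237 bases. Ccn2 and Cplx3 shared no match of the set. Among all 33469 promoters, 12.1% held GGAATG in the same 250 bases, 5.59% CACGTG, 12.9% TATAAA, 34% CCAAT and 30.5% CCGCCC. A match of letters is a description and no evidence of binding.

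By a fixed rule, the 10 genes outside the members with the highest r to the mean z-score of each layer were found. For layer 6 they were Sema5a (0.78), Nxph3 (0.77), Rai14 (0.77), Hs3st4 (0.75), Cyp26b1 (0.75), Clic5 (0.73), Ipcef1 (0.73), Bhmt (0.71), Cdhr1 (0.70) and Prr15 (0.69), over 119 libraries. For layer 6b they included Hs3st4 (0.77), Bhmt (0.73), Cldn11 (0.72), Klk6 (0.71), Nkx6-2 (0.70), Mog (0.70), Gjb1 (0.70), Cfap20dc (0.69) and Mag (0.69). The lists share 2 genes, Hs3st4 and Bhmt. Cldn11, Mog, Gjb1 and Mag, all in the layer 6b list, are also in the list of 14 myelin genes used below. Of these, 8 of the 10 layer 6 genes and 7 of the 10 layer 6b genes were listed again without the 7 libraries of low Gad2.

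The layer 6b genes rose with the myelin genes. A myelin score, the mean z-score of 14 genes led by Mbp and Mobp, was set against every gene over the 119 libraries, whose summed myelin CPM ran from 1251 to 23017. Cplx3 rose by 0.38 ± 0.04 log2 units per SD of the score (SE, adjusted p = 2.05e-15; r = 0.67, rho = 0.67, permutation p = 1e-05). Nxph4 rose by 0.42 ± 0.05 (adjusted p = 9.79e-12; r = 0.60, rho = 0.65, permutation p = 1e-05) and Ccn2 by 0.28 ± 0.04 (adjusted p = 5.36e-11; r = 0.58, rho = 0.57, permutation p = 1e-05). Each of these 3 genes had r above 0 with all 14 myelin genes, and so did Tle4, Syt6, Rprm and Thsd7b. Foxp2 had r above 0 with 13 of them, Sulf1 with 12 and Crym with 0. Of all genes, 99.4% had a lower slope than Nxph4, 99.3% a lower slope than Cplx3 and 98.6% a lower slope than Ccn2.

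The other members had smaller slopes. Syt6 rose by 0.17 ± 0.03 (adjusted p = 1.21e-07; r = 0.49), Rprm by 0.17 ± 0.03 (adjusted p = 3.77e-05; r = 0.40) and Tle4 by 0.10 ± 0.02 (adjusted p = 0.00014; r = 0.37). Thsd7b at 0.07 ± 0.03 (adjusted p = 0.0693), Foxp2 at 0.06 ± 0.03 (adjusted p = 0.113) and Sulf1 at 0.04 ± 0.03 (adjusted p = 0.346) did not pass. Crym fell by 0.07 ± 0.02 (adjusted p = 0.00204; r = -0.31, rho = -0.11, permutation p = 0.00079 and 0.217). So 6 members passed with a positive slope and 1 with a negative one, but 51.4% of all genes passed, 28.7% with a positive and 22.6% with a negative slope, and the count is read against that. The count was 8 positive and 1 negative without the 7 libraries of low Gad2, where 28.6% and 28.7% of all genes passed. Over the 10 members r was computed with the score for each, and leaving out the 2 libraries farthest from the median score gave r = 0.68 for Cplx3, 0.59 for Nxph4, 0.56 for Ccn2, 0.50 for Syt6 and -0.18 for Crym.

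The layer 6b genes had r above 0 with the myelin score within each kind of identifier, and slopes were tested in the decimal and E21DCD libraries, where all 3 genes passed. Of all genes, 28.4% passed in the decimal and 63.2% in the E21DCD libraries, so a pass in the latter says little. For Cplx3, r was 0.53 in the decimal, 0.53 in the reassigned and 0.78 in the E21DCD libraries, for Nxph4 0.49, 0.38 and 0.73, and for Ccn2 0.52, 0.53 and 0.64, in the same order. Without the 6 decimal libraries of highest myelin, the slope of Ccn2 in the decimal libraries was 0.15 ± 0.06 and did not pass (adjusted p = 0.103). Cplx3 (adjusted p = 0.0202) and Nxph4 (adjusted p = 0.0498) did, and so did Tle4 (adjusted p = 0.0115) and Syt6 (adjusted p = 0.00949). There r with the score was 0.46 for Tle4 and for Syt6, above the 0.43, 0.38 and 0.34 of Cplx3, Nxph4 and Ccn2. The share of all genes in that fit is not given, so these passes are not read as particular to the members. Given the myelin score, the mean partial r within layer 6b was 0.63 and within layer 6 0.72, against 0.77 and 0.72 without that adjustment, and between the layers it was 0.39. Both layers thus kept positive correlations among their members at a given myelin score. The mean partial r of Crym with the other 9 members was 0.27, against 0.10 without that adjustment. It was 0.29 given the score without the 7 libraries of low Gad2. Over all 119, these partial r of Crym ran from 0.09 with Foxp2 and Thsd7b to 0.53 with Rprm.

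**Figure D4:**
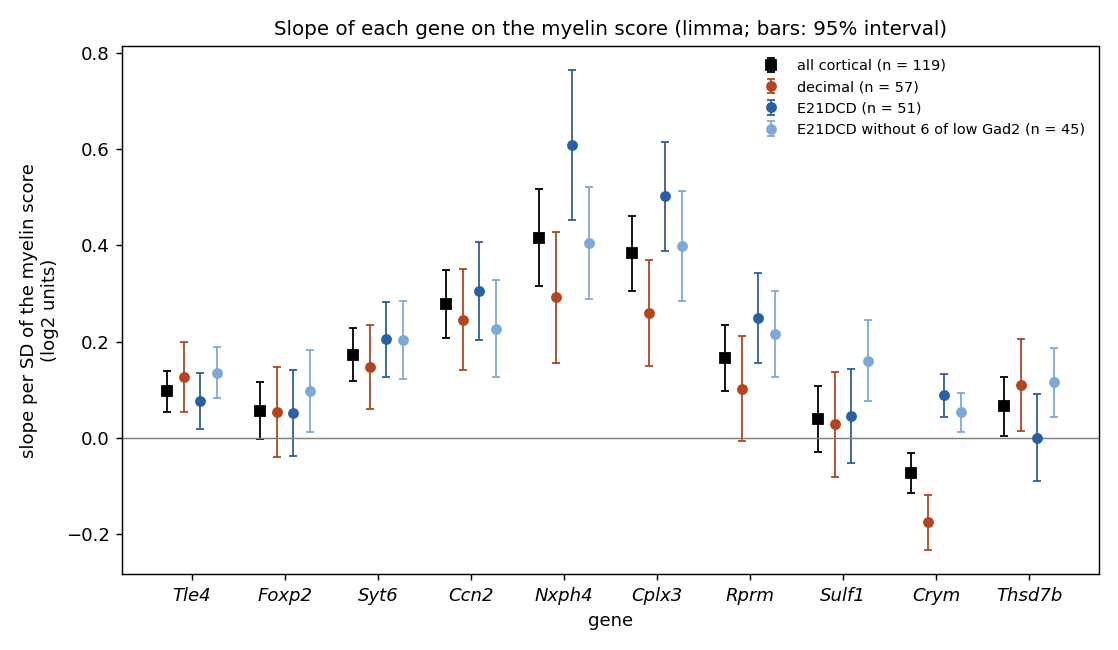
Slope of each gene on the myelin score in log2 units per SD (y axis; points with 95% intervals, limma) for all 119 cortical libraries, the 57 decimal, the 51 E21DCD and the 45 E21DCD libraries without low Gad2. Nxph4, Cplx3 and Ccn2 lie above 0 in every set, and Crym lies below 0 in the decimal and above 0 in the E21DCD libraries.

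Crym changed the sign of its relation with myelin between the kinds of identifier. Its lowest, median and highest levels were 7.06, 8.20 and 8.59 in the 57 decimal cortical libraries, 8.07, 8.28 and 8.63 in the 11 reassigned and 8.02, 8.22 and 8.80 in the 51 E21DCD libraries. The low values, down to 7.06, thus lay in decimal libraries. Its slope was -0.18 ± 0.03 in the decimal libraries (adjusted p = 1.63e-06, r = -0.63) and 0.09 ± 0.02 in the E21DCD libraries (adjusted p = 0.000703, r = 0.49), with r = -0.37 in the reassigned libraries. The difference, decimal minus E21DCD, was -0.28 ± 0.04 (limma interaction, adjusted p = 1.06e-07), where 49.6% of all genes passed. It was -0.25 ± 0.04 without the 7 libraries of low Gad2 (adjusted p = 1.75e-05), where 23.1% of all genes passed.

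The kinds of identifier also differed in the range of the score. The highest myelin score was 3.29 SD in a decimal library and 1.68 SD in an E21DCD library, and 6 decimal libraries lay above every E21DCD library. Within the shared range the difference for Crym was -0.17 ± 0.04 (adjusted p = 0.000288), where 46.3% of all genes passed. There its slope in the 51 remaining decimal libraries was -0.08 ± 0.03 (adjusted p = 0.0615, r = -0.38), so the slope in the decimal libraries alone passed only with the 6 libraries of highest myelin. Nxph4 and Cplx3 had smaller slopes in the decimal libraries, by -0.39 ± 0.11 (adjusted p = 0.00271) and -0.30 ± 0.09 (adjusted p = 0.00261), and without the 7 libraries these differences were -0.20 ± 0.11 (adjusted p = 0.184) and -0.24 ± 0.10 (adjusted p = 0.0563).

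**Figure D5:**
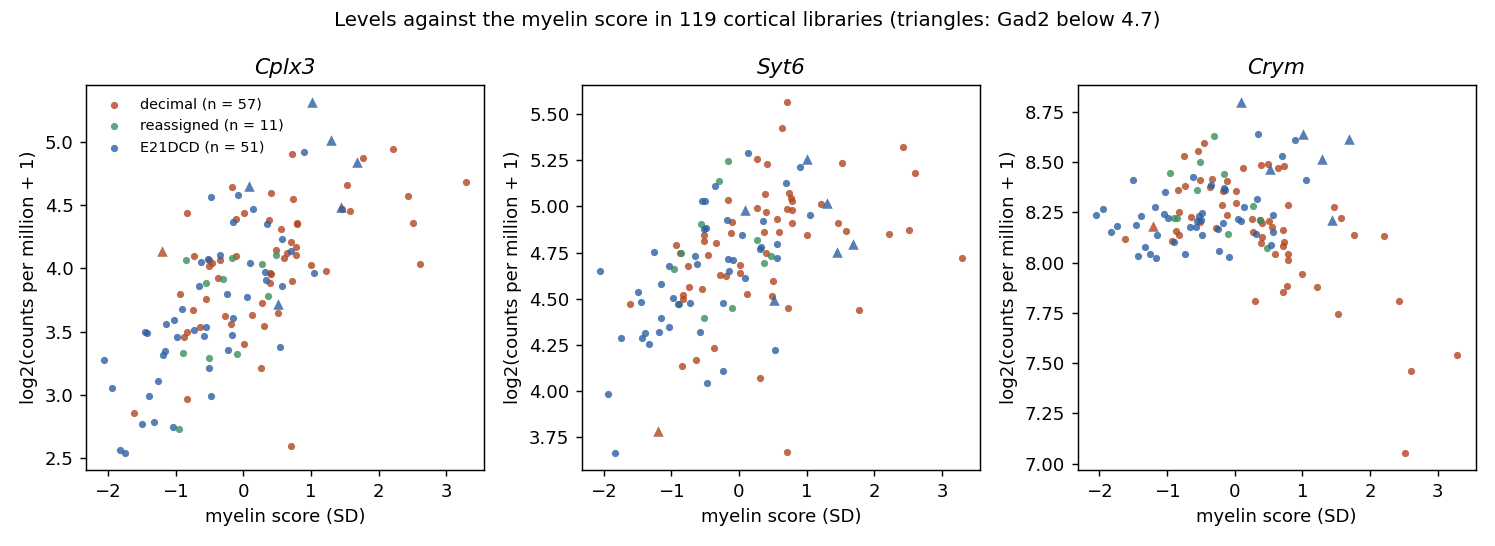
Levels of Cplx3, Syt6 and Crym, as log2(CPM + 1), against the myelin score in SD for 119 cortical libraries, coloured by kind of identifier (57 decimal, 11 reassigned, 51 E21DCD; triangles mark Gad2 below 4.7). Cplx3 and Syt6 rise with the score (r = 0.67 and 0.49), and the lowest values of Crym, down to 7.06, are decimal libraries of high score.

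Of 18 further genes of layer 6 or 6b, chosen by name, 5 passed with a positive and 2 with a negative slope on the myelin score, where 28.7% and 22.6% of all genes did, and their median slope was 0.02, against 0.00 over all genes. Lpar1, a lysophosphatidic acid receptor also made by oligodendrocytes, had the largest slope at 0.68 ± 0.02 (adjusted p = 2.4e-72), followed by Hs3st4, a heparan sulfate sulfotransferase, at 0.25 ± 0.02 (adjusted p = 9.57e-18) and Tmem163, a zinc transporter, at 0.19 ± 0.03 (adjusted p = 1.49e-09). In the other direction were Ntsr1, the neurotensin receptor used to label corticothalamic cells in mouse, at -0.13 ± 0.04 (adjusted p = 0.00865), Cdh18 at -0.06 ± 0.02 (adjusted p = 0.0263) and Gnb4 at -0.05 ± 0.02, which did not pass (adjusted p = 0.0818). Tbr1 and Sox5, transcription factors that specify layer 6 neurons, had slopes of 0.04 ± 0.02 (adjusted p = 0.171) and 0.01 ± 0.02 (adjusted p = 0.822).

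Upper-layer genes ran against the layer 6b genes. On a score of 12 upper-layer genes led by Cux1 and Cux2, Nxph4 fell by 0.40 ± 0.05 per SD (adjusted p = 8.1e-12; r = -0.58, permutation p = 1e-05) and Cplx3 by 0.30 ± 0.04 (adjusted p = 1.28e-09; r = -0.52, permutation p = 1e-05). Ccn2 fell by 0.12 ± 0.04 (adjusted p = 0.0059), Rprm by 0.11 ± 0.04 (adjusted p = 0.00382) and Syt6 by 0.09 ± 0.03 (adjusted p = 0.00555), while Sulf1 at 0.08 ± 0.03 (adjusted p = 0.0196) and Thsd7b at 0.10 ± 0.03 (adjusted p = 0.00116) rose. In all 5 members passed with a negative and 2 with a positive slope, where 23% and 54.1% of all genes did. Without the 7 libraries of low Gad2, all members other than Crym passed with a negative slope, 9 of 10, where 30.3% of all genes did, and Sulf1 and Thsd7b had slopes of -0.09 and -0.10. With median-of-ratios scaling over all 119 the slopes of Sulf1 and Thsd7b were -0.01 (adjusted p = 0.741) and 0.01 (adjusted p = 0.804), and that of Tle4 was -0.04. So the direction of Sulf1 and Tle4 depends on the scaling, and that of Sulf1, Tle4 and Thsd7b on the libraries used. Decimal replicate 15, among the 7, had an upper-layer score of -6.79 SD, and the next lowest was -2.47 SD. It also had the lowest Tle4, Sulf1 and Thsd7b. No fit on this score left out that library alone. With the myelin score as a covariate, Nxph4 and Cplx3 still passed at -0.26 ± 0.05 (adjusted p = 4.95e-06) and -0.15 ± 0.04 (adjusted p = 0.000899), and Ccn2 did not, at 0.02 ± 0.04 (adjusted p = 0.728), where 18.7% of all genes passed with a negative slope.

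Scores of other cell classes moved with the members as well. On a meningeal score of 12 genes led by Col1a1 and Col1a2, 6 members passed with a negative slope and none with a positive one, where 0.568% of all genes passed with a negative slope, and 8 passed without the 7 libraries, where 1.4% did. Nxph4 had the largest, at -0.28 ± 0.06 (adjusted p = 0.00061), and summed meningeal CPM ran from 68.3 to 568 with no gene at 0. On a striatal score of 11 genes, 7 members passed with a positive slope, where 19.2% of all genes did. They were all layer 6b members, Tle4, Syt6, Rprm and Thsd7b, with Nxph4 at 0.27 ± 0.06 (adjusted p = 0.000207), and the summed striatal CPM ran from 237 to 959. When the 7 libraries were left out Rprm (adjusted p = 0.0714) and Thsd7b (slope 0.04, adjusted p = 0.206) did not pass and Foxp2 did (0.08 ± 0.03, adjusted p = 0.0327), which left 6 members, where 17.1% of all genes passed with a positive slope. On a microglial score of 10 genes, whose summed CPM ran from 304 to 607.5, Cplx3 at 0.19 ± 0.05 (adjusted p = 0.000604), Nxph4 at 0.16 ± 0.06 (adjusted p = 0.0211) and Ccn2 at 0.13 ± 0.04 (adjusted p = 0.00655) rose, where 32.7% of all genes passed with a positive slope, and Nxph4 did not pass without the 7 libraries (adjusted p = 0.0579). As many members, 3, passed with a negative slope on the microglial score, also without the 7 libraries. The lowest r were those of Sulf1 (-0.26), Crym (-0.26) and Foxp2 (-0.25). The share of all genes with a negative slope on it is not given. On a layer 5 score of 11 genes, 4 members passed with a positive slope, Tle4, Foxp2, Sulf1 and Thsd7b, where 53.6% of all genes did. Without the 7 libraries Foxp2 and Sulf1 still passed. The share of all genes in that fit is not given, so these passes are not read as particular to the members. On a score of 10 excitatory neuron genes, 3 members passed with a positive and 2 with a negative slope, where 54.3% and 17.6% of all genes did. On that score 7 members passed with a negative slope without the 7 libraries, where 30.8% of all genes did, Tle4 then at -0.07 and Thsd7b at -0.08, against 0.08 and 0.11 over all 119. With median-of-ratios scaling over all 119, Tle4 was at -0.0025 (adjusted p = 0.922), so its direction depends on the libraries and the scaling. With the striatal score as a covariate, the slopes on the myelin score were 0.41 ± 0.05 for Cplx3 (adjusted p = 1.15e-12), 0.39 ± 0.06 for Nxph4 (adjusted p = 1.06e-07) and 0.25 ± 0.04 for Ccn2 (adjusted p = 7.18e-07), and all 3 passed. In that fit 51% of all genes passed in either direction. The slopes of the layer 6 genes were smaller in it. They were 0.07 ± 0.03 for Tle4 (adjusted p = 0.0297) and 0.13 ± 0.03 for Syt6 (adjusted p = 0.000639), against 0.10 and 0.17 without the covariate. For Foxp2 it was 0.02 ± 0.04 (adjusted p = 0.683), against 0.06. The part of the meningeal, microglial, layer 5 and excitatory genes in the results on the members was not tested. Nor was that of the striatal genes in the correlations among the members.

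Crym had its strongest relations elsewhere. Per SD of an interneuron score of 10 genes led by Gad1 and Gad2 it rose by 0.14 ± 0.02 (adjusted p = 3.38e-10; r = 0.58, permutation p = 1e-05), and per SD of an endothelial score led by Cldn5 and Pecam1 it fell by 0.14 ± 0.02 (adjusted p = 6.84e-12; r = -0.60, permutation p = 1e-05). On an astrocyte score led by Slc1a2 and Slc1a3 it fell by 0.12 ± 0.02 (adjusted p = 1.8e-07; r = -0.48, permutation p = 1e-05). These r were 0.62, -0.68 and -0.61 without the 7 libraries of low Gad2. In the 119 libraries 36.3% of all genes passed with a positive slope on the interneuron score, 10.7% with a negative slope on the endothelial and 11.1% on the astrocyte score.

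The kind of identifier is the only label that divides the libraries, and its purpose is not given. None of the 10 members passed between the 57 decimal and the 51 E21DCD cortical libraries, where 8.77% of all genes did (1328 of 15150), and 1 of the 10, Cplx3, came closest. Cplx3 had a lowest, median and highest level of 2.60, 4.07 and 4.94 in the decimal libraries, against 2.54, 3.68 and 5.31 in the E21DCD libraries. The groups overlapped over nearly their whole range, and the difference in means was 0.28 ± 0.11 (SE, 95% interval 0.07 to 0.50, adjusted p = 0.0857). Crym differed by -0.10 ± 0.05 (adjusted p = 0.146), Nxph4 by 0.15 ± 0.14 (adjusted p = 0.532), Ccn2 by 0.15 ± 0.09 (adjusted p = 0.329) and Syt6 by 0.12 ± 0.07 (adjusted p = 0.269), and the other 5 by 0.02 to 0.10.

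Without the 7 libraries of low Gad2, 6 of them E21DCD, 5 members passed as higher in the decimal libraries. These were Cplx3 at 0.40 ± 0.10 (adjusted p = 0.00149), Nxph4 at 0.35 ± 0.11 (adjusted p = 0.0129), Ccn2 at 0.26 ± 0.08 (adjusted p = 0.011), Rprm at 0.19 ± 0.08 (adjusted p = 0.0426) and Syt6 at 0.17 ± 0.07 (adjusted p = 0.0377). In that comparison 34.2% of all genes passed, and 19.2% of all genes passed as higher. Myelin genes moved with the same split: 13 of 14 were higher in the 57 decimal than in the 51 E21DCD cortical libraries, with a median difference of 0.53, and summed myelin CPM ran from 1692 to 23017 in the decimal, against 1251 to 13828 in the E21DCD libraries. With the myelin score as a covariate and the 7 libraries left out none of the 10 members passed, Cplx3 differing by 0.07 ± 0.09 (95% interval -0.11 to 0.26, adjusted p = 0.707), Nxph4 by -0.01 ± 0.10 (adjusted p = 0.968) and Ccn2 by 0.04 ± 0.08 (adjusted p = 0.852), where 6.09% of all genes passed. Of the 18 further layer 6 genes, with all 57 decimal and 51 E21DCD libraries, Lpar1 at 0.51 ± 0.13 (adjusted p = 0.00629) and Hs3st4 at 0.23 ± 0.07 (adjusted p = 0.0212) passed and the median difference was 0.01.

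No member passed between the 11 reassigned and the 51 E21DCD libraries, and neither did any other gene (0%), although 634 genes had an unadjusted p under 0.05. The largest difference among the members was that of Sulf1 at 0.19 ± 0.11 (95% interval -0.03 to 0.42, adjusted p = 0.912), and for Nxph4 the interval ran from -0.57 to 0.43.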

How the data were processed

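Prelimbic cortex RNA of 130 libraries was used, and 34 of 164 labelled samples, which have no matching column, were not analysed here. The authors made the estimated counts with kallisto 0.48, per the submitters' processing notes. The deposited values are log2 of those counts plus 1 with no depth scaling. They were turned back to counts, brought to 1000000 per library and logged again after adding 1. The labels name no build, and all 38272 table genes that could be compared lay at an end of the RefSeq GRCr8 gene of that symbol. The members, lists, classes and limits (Drd2 above 6, Gad2 below 4.7) were chosen with earlier results of these data known.

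Genes with a mean of at least 1 (15150) were fitted by limma's trended empirical Bayes model, two-sided, with Benjamini-Hochberg adjustment over every gene in a fit and a threshold of 0.05 (limma 3.58.1, R 4.3.3). A score is the mean z-score of a list, scaled to an SD of 1, and its genes were left out of its own fit. Correlations had 100000 permutations, with 1e-05 the smallest possible p. Each SD was set against a lowess trend (frac 0.3). Other tools were Python 3.11.15, with numpy 2.4.6 and pandas 2.3.3 for tables, matplotlib 3.10.9 for plots, and scipy 1.17.1 and statsmodels 0.14.6.

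Named were all 10 members, the 3 largest slopes in each direction among the further layer 6 genes and the 10 genes most like each layer, of which 1 is not reported here. Slc17a7, Neurod6, Tbr1, Sox5 and genes that head a list were named besides that rule. Alternatives were median-of-ratios scaling (factors 0.523 to 2.12, with library medians moved by -0.14 to 0.80), no filter, a pseudocount of 0.1, covariates and subsets of libraries, several of them added after seeing the data. The fits were tested on simulated data, but the setting and outcome are not given, so no result here rests on that. The labels give no batch, and each library has its own animal identifier.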

Additional observations from a re-analysis of the deposited data

Results flagged for a closer look

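Crym, Nxph4 and Cplx3 differed in their slope on the myelin score between the decimal and the E21DCD libraries by a test of that difference (limma interaction, decimal minus E21DCD). The differences were -0.28 for Crym (adjusted p = 1.06e-07), -0.39 for Nxph4 (adjusted p = 0.00271) and -0.30 for Cplx3 (adjusted p = 0.00261). These 3 of the 10 members passed where 49.6% of all genes did. For Crym the slopes had opposite signs, and for Nxph4 and Cplx3 both slopes were positive and that in the decimal libraries was the smaller. Without the 7 libraries of low Gad2 the values were -0.25, -0.20 and -0.24, and only that of Crym still passed among the 3, where 23.1% of all genes did. With myelin scores restricted to the range of the E21DCD libraries they were -0.17, -0.32 and -0.24 and all 3 passed (adjusted p = 0.000288, 0.0213 and 0.0225), where 46.3% of all genes did. A Sulf1 difference of -0.23 passed only without the 7 libraries (adjusted p = 0.0195), and one of Thsd7b, 0.18, only within that range (adjusted p = 0.0318).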

How the results depend on the processing

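Of 607 values recomputed for 95 results under up to 19 settings, 506 were classed as unchanged. For a slope, a difference or the r of a pair, this meant the same direction and side of the threshold. For a count of genes it meant a change within a fixed fold limit. For a mean r it meant a value within an interval around the main one. The setting with no filter leaves every r as it was by construction. Genes passing between decimal and E21DCD libraries, 1328, became 850 with no filter, 5177 without the 7 libraries of low Gad2, 4183 with all libraries and 2263 without decimal replicate 15. Between reassigned and E21DCD, 2 passed with no filter. On the myelin score, 7774 became 4301 within decimal libraries (7603 without replicate 15) and 9564 within E21DCD libraries (4110 without the 6 of low Gad2). The mean r within layer 6 was 0.82 without the 7, 0.88 with all libraries and 0.82 without the 7 given myelin. Within layer 6b it was 0.35 with all libraries, 0.63 given myelin, 0.84 within E21DCD libraries and 0.66 without the 7 given myelin, and between layers 0.25 with all libraries. With all libraries, 11 of them striatal-like, r turned to -0.11, -0.25 and -0.15 for Cplx3 with Tle4, Foxp2 and Syt6, the decimal difference to -0.35 for Rprm and -0.0422 for Thsd7b, and the myelin slope to -0.343 and -0.0469 for the same genes. With myelin as a covariate the decimal difference turned to -0.0571 for Tle4, -0.00688 for Syt6, -0.0571 for Ccn2, -0.172 for Nxph4 and -0.0235 for Rprm, and without the 7 as well to -0.0739 for Tle4, -0.0315 for Foxp2, -0.0127 for Nxph4, -0.0211 for Sulf1, 0.0253 for Crym and -0.0497 for Thsd7b. Without the 7 the reassigned difference turned to 0.137 for Nxph4 and 0.0559 for Cplx3. Myelin slopes turned within E21DCD libraries to 0.0879 for Crym (0.0528 without the 6) and -0.00012 for Thsd7b, and for Sulf1 to -0.00832 with the striatal score as a covariate and -0.0213 within decimal libraries without replicate 15. Differences of the myelin slope turned without the 7 to -0.0863 for Tle4 and -0.0916 for Thsd7b, and within the E21DCD score range to 0.0269 for Foxp2, 0.0126 for Syt6 and 0.0758 for Sulf1. Upper-layer slopes turned with median-of-ratios scaling to -0.0429 for Tle4 and -0.012 for Sulf1, without the 7 to -0.096 for Tle4, -0.0901 for Sulf1, 0.0229 for Crym and -0.0953 for Thsd7b, and given myelin to 0.0158 for Ccn2. The cause of these changes was not tested. Nxph4 has the fewest counts, down to 9 in a library, which limits its precision. No paired analysis was possible because the replicate numbers only name libraries within a kind of identifier.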
